A study of Mus musculus with 6 samples.

Results

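Genes of tight junctions and apical polarity were followed in the intestine of mouse embryos with and without Klf5, the gene of a zinc-finger transcription factor of epithelia: Tjp1, Tjp3, Ocln, Cgn, Marveld2, Marveld3, F11r, Crb3 and Epcam. They were listed by name, and each was read from the array row annotated to that symbol alone, so that these were 9 of the 19938 genes of the table, each with 1 row. The tissue was the intestine of embryos at day E14.5, a stage before villi rise from the flat lining, cut about 1.5 cm on the anterior side of the cecum, in mice of mixed strain (part C57Bl/6). The Klf5-deleted group (genotype Klf5D/D) and the control group (Klf5wt/wtShhEGFP/Cre+, wild-type at Klf5) each held 3 arrays, and each array carried RNA pooled from 2 intestines. In the ShhEGFP/Cre allele Cre is expressed from the Shh locus, which is active in the gut epithelium, and the insertion disrupts that copy of Shh. The labels of the Klf5-deleted samples name no Cre allele, so the labels do not say whether both groups carry it.

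A tight junction seals the space between neighbouring epithelial cells just below their apical surface. Its strands are built by claudins together with the tetraspan MARVEL proteins occludin (Ocln), tricellulin (Marveld2) and Marveld3. The immunoglobulin-like adhesion protein JAM-A (F11r) is found with them. On the cytoplasmic side the ZO scaffolds (Tjp1, Tjp3) and cingulin (Cgn) tie the strands to actin, while Crb3, the small epithelial Crumbs protein, organises the apical domain through PALS1, PATJ and the Par complex. Epcam is an epithelial surface protein that binds claudin-7 and stabilises it, and its loss causes a congenital disease of the intestinal epithelium.

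RefSeq (GRCm38.p6) gave the 250 bases before the start of transcription for 8 of the 9 genes, all but Marveld3. The windows of 5 genes are shown because these genes span the range of responses reported below: Tjp3 and Ocln fell most, Cgn and Epcam fell less, and Tjp1 was not called. Where the table held several starts, the most upstream was used. The genes of Tjp1 and Cgn extend upstream of the starts listed. Capitals mark matches on either strand to the GC box GGGCGG, to CCNCNCCC, a pattern of the Klf and Sp factors, or to AACNGGTT, a pattern of grainyhead-like factors. A single stretch such as CCCCGCCC can match both of the first patterns. The windows lie at chr10:81291582-81291831 (minus strand), chr13:100552719-100552968 (minus strand), chr3:94786483-94786732 (minus strand), chr17:87635729-87635978 (plus strand) and chr7:65371245-65371494 (minus strand).
Tjp3: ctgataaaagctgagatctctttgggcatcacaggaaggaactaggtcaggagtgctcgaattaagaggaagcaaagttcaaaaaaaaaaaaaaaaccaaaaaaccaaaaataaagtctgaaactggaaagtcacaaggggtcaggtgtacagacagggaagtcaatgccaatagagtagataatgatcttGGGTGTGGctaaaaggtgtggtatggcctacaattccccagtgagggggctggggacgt
Ocln: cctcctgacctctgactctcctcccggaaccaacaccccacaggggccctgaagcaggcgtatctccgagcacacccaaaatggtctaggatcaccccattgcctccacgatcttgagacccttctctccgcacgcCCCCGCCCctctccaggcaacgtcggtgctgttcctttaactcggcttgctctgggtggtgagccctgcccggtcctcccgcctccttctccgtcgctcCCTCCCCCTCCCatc
Cgn: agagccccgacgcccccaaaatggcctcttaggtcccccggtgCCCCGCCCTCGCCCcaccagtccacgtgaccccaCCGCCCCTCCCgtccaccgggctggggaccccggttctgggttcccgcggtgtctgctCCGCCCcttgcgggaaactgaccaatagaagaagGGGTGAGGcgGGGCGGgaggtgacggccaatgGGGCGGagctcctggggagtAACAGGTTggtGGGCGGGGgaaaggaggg
Epcam: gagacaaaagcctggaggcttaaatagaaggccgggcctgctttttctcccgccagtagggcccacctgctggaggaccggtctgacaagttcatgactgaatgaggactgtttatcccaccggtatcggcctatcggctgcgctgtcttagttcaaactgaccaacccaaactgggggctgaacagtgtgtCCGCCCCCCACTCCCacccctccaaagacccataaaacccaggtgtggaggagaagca
Tjp1: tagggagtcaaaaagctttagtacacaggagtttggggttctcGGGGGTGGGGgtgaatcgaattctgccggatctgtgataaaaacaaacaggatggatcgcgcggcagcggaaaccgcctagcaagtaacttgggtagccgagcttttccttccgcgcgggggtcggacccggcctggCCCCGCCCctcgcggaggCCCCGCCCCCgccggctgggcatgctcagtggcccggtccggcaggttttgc

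The Klf and Sp pattern was found in 8 of 8 windows of the junction genes, against 45.9% of the 32851 windows of the same length in the RefSeq table. It occurred 1 time before Tjp3, 3 times before Ocln, 5 times before Cgn, 2 times before Epcam and 5 times before Tjp1, which was not called. Overlapping matches were counted separately, and any link of these counts to the changes was not tested. GC boxes were found in 7 of 8 windows, all but that of Tjp3, against 32.7% of all windows. The Tjp3 window also had the lowest GC content of the 8, 43.2%, while the others ranged from 50.4% to 70.4% and the median of all windows was 52.4%. The grainyhead-like pattern was found before Cgn alone among the 8 genes (1.79% of all windows), the E-box CAGGTG of Snail and Zeb factors before Crb3, Epcam, F11r and Tjp3 (17.2% of all windows), and TATAAA before Marveld2 (12.4% of all windows). Such matches describe letters and not binding.

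**Figure D1:**
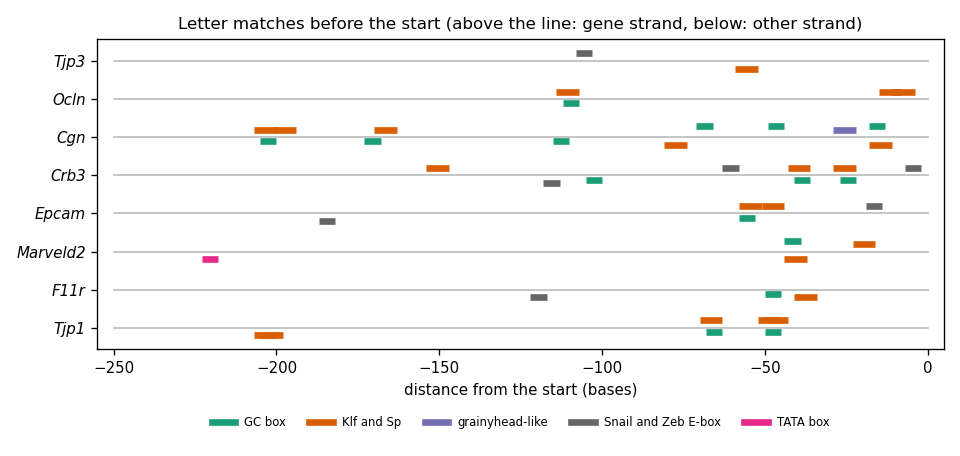
Positions of the letter matches in the 250 bases before the start of 8 genes, ordered from the largest fall (Tjp3) to Tjp1; the x axis is the distance from the start in bases, and marks above and below each line are matches on the strand of the gene and on the other strand. Klf and Sp marks are present on all 8 lines, and the GC box is missing from that of Tjp3.

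The comparison asked which genes change without KLF5 before villi form. Klf5 itself read 10.24, 10.49 and 10.34 on the log2 scale in the Klf5-deleted group, against 11.55, 11.74 and 11.77 in the controls, a log2 fold change of −1.33 (SE 0.08, adjusted p = 9.62e-05 with limma). This left 39.8% of the control signal, and the source of the remaining signal was not tested. The words without Klf5 below name the Klf5-deleted group. Arrays correlated at 0.994 to 0.997 within groups and at 0.989 to 0.993 between groups across all rows, which are not independent replicates. Of all genes, 8.58% were called lower in the Klf5-deleted intestine and 8.95% higher at a Benjamini-Hochberg adjusted p of 0.05 (1711 and 1785 genes), with a median log2 fold change of 0.02. With each array centred on its median, 1767 were lower and 1216 higher, and without control replicate 2 the counts were 1132 and 868. Leaving out Klf5-deleted replicate 3 or control replicate 3 gave 1174 or 1143 higher genes. The pools also differed in sex: Xist, the RNA of the silenced X chromosome, read 5.89 to 6.47 without Klf5, against 11.93 to 12.61 in the controls, and a male share computed from 3 Y-linked genes was 95% to 103% and 0% to 47.1%. None of the 9 junction genes is on the X or Y chromosome. Every Klf5-deleted pool had a higher male share than every control pool. Effects of sex and of the deletion therefore cannot be fully told apart, whatever the chromosome of a gene.

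Of the 9 genes, 8 fell in the Klf5-deleted intestine and 0 rose (limma, and 0 rose at an unadjusted p under 0.05), against the 8.58% of all genes called lower. The median log2 fold change of the 9 was −0.61. The values of the groups did not overlap for these 8 genes, a pattern with the Klf5-deleted arrays lower that 15.9% of all genes showed. The falls were graded, from 44.2% of the control signal for Tjp3 to 81.4% for Marveld3, and Tjp1 was at 103%. A permutation test over the arrays (exact, two-sided) gave p = 0.1 for each gene, the smallest value that 3 arrays against 3 allow. The labels do not say that the pools came from separate litters, so every p here reflects how much these pools vary. With the male share as a covariate, a fit added with the data in view, 0 of the 8 falls passed (adjusted p = 0.0727 to 0.695), while 9 of 9 genes kept their sign. In that fit 7 of the 9 genes fell at an unadjusted p under 0.05, and the share of all genes at that p is not given here. The changes of Marveld2 and Marveld3 there were −0.70 and −0.16.

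**Figure D2:**
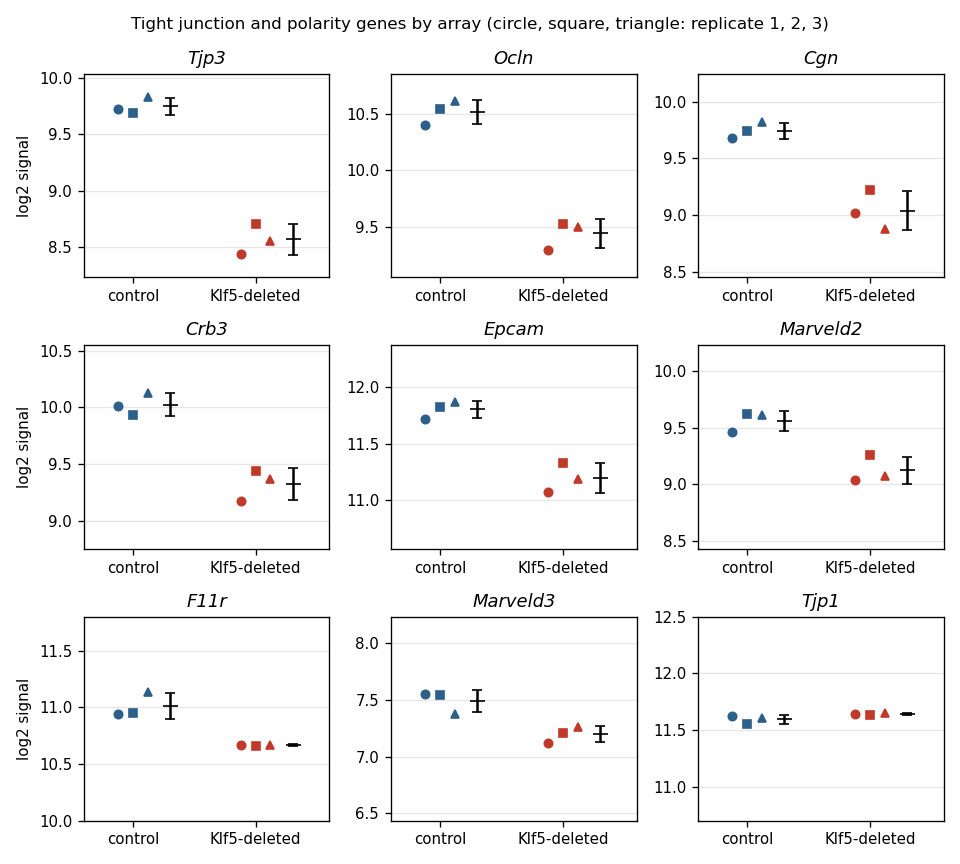
Log2 signal of each of the 9 genes in the 3 control arrays (blue) and the 3 Klf5-deleted arrays (red), ordered by the size of the fall, with group means and SD in black; each panel spans the same range of 1.8 log2 units. The Klf5-deleted points of 8 genes lie below all control points, by a gap of 0.98 for Tjp3 and 0.13 for Marveld3, and those of Tjp1 lie 0.01 above them.

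The ZO scaffolds stood at opposite ends of the list. Tjp3, which encodes ZO-3, a scaffold found mainly in epithelia, read 8.44, 8.71 and 8.56 without Klf5, against 9.72, 9.69 and 9.83 in the controls. The lowest control lay 0.98 above the highest Klf5-deleted array. Tjp3 fell by 1.18 (SE 0.08, n = 3 per group, adjusted p = 0.000118 with limma). Tjp1, which encodes ZO-1, the scaffold that many cell types besides epithelia also use, read 11.64, 11.63 and 11.65 without Klf5, against 11.62, 11.55 and 11.61 in the controls. The log2 fold change of Tjp1 was 0.05 (95% interval −0.05 to 0.15, adjusted p = 0.55 with limma). For the whole tissue, a fall of the size seen in any of the other 8 genes lay outside this interval. Tjp1 signal from the epithelium alone was not measured. Within arrays the log2 difference of Tjp3 from Tjp1 went from −1.84 ± 0.06 (SD, n = 3) in the controls to −3.07 ± 0.15 (SD, n = 3) in the Klf5-deleted arrays, and the groups did not overlap. These genes are the ends of the list, and the pair was chosen after the values were seen and was not tested.

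Cgn encodes cingulin, a coiled-coil protein that binds ZO proteins and myosin. Its log2 signal was 9.02, 9.22 and 8.88 without Klf5 and 9.68, 9.74 and 9.82 in the controls. Cgn fell by 0.70 (SE 0.09; limma, adjusted p = 0.00213) and so stood at 61.4% of the control signal, and the Klf5-deleted arrays spread more widely (SD 0.17 against 0.07). Its paralog Cgnl1, encoding paracingulin, was at 0.23 (SE 0.07, adjusted p = 0.0626), and the difference passed with the lowest 25% or 50% of genes left out (adjusted p = 0.0486 and 0.0304) or with an intensity trend and robust variance (adjusted p = 0.0497).

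The genes of the MARVEL proteins fell to different degrees. Ocln, whose product occludin shapes strands where neighbouring cells meet, showed the second largest fall of the list. It read 9.30, 9.53 and 9.50 without Klf5, against 10.40, 10.54 and 10.61 in the controls, and fell by 1.08 (SE 0.08, adjusted p = 0.000194 with limma). Marveld2, whose product tricellulin seals the points where the corners of cells meet, read 9.04, 9.26 and 9.07 against 9.46, 9.62 and 9.61. Marveld2 fell by 0.44 (SE 0.07, adjusted p = 0.00716), reaching 73.7% of the control signal. In the RefSeq table Ocln and Marveld2 are neighbours, with 0 protein-coding genes between them, and Ocln fell further: their within-array difference went from 0.95 ± 0.04 (SD, n = 3) to 0.32 ± 0.10 (SD, n = 3), without overlap. This pair was chosen after the values were seen and was not tested.

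Marveld3, the gene of the remaining MARVEL protein of the junction, was the member below the median signal of all genes and the least changed of the 8. It read 7.12, 7.21 and 7.26 without Klf5, against 7.55, 7.54 and 7.38 in the controls, with 1 control, replicate 3, only 0.13 above the highest Klf5-deleted array. Marveld3 fell by 0.30 (SE 0.06, adjusted p = 0.019 with limma). It no longer passed when control replicate 1 (−0.27, adjusted p = 0.0618) or control replicate 2 (−0.27, adjusted p = 0.0737) was left out. Changes of dim rows can be understated on arrays, which was not tested for Marveld3.

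F11r, the gene of the adhesion protein JAM-A, read 10.67, 10.66 and 10.67 without Klf5, against 10.94, 10.95 and 11.14 in the controls. The Klf5-deleted arrays were within 0.01 of each other, and control replicate 3 stood above the other controls. F11r fell by 0.34 (SE 0.06, adjusted p = 0.00862 with limma), and by 0.28 without control replicate 3. Of its relatives, Jam3 rose by 0.30 (SE 0.06, adjusted p = 0.0116) and Jam2 was at 0.08 (95% interval −0.02 to 0.18, adjusted p = 0.258).

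Crb3, the gene of the apical polarity protein of the list, read 9.17, 9.44 and 9.37 without Klf5 and 10.01, 9.93 and 10.13 in the controls. Crb3 fell by 0.70 (SE 0.08; limma, adjusted p = 0.00161) and so stood at 61.8% of the control signal. Epcam read 11.07, 11.33 and 11.19 against 11.72, 11.82 and 11.87, and fell by 0.61 (SE 0.07, adjusted p = 0.00187), which left 65.6%. In 6 of the 8 genes that fell, Klf5-deleted replicate 1 was the lowest array. The same array was lowest for other epithelial genes such as Cdh1, Krt19 and Vil1, though not for Krt18. The share over all genes was not computed.

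**Figure D3:**
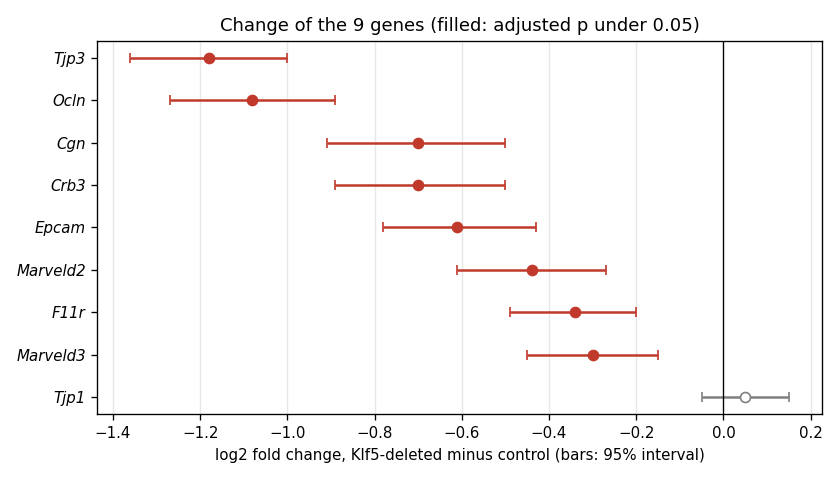
Log2 fold change of the 9 genes, Klf5-deleted minus control, with 95% intervals from limma; filled points passed an adjusted p of 0.05. The points run from −1.18 for Tjp3 to 0.05 for Tjp1, whose interval alone includes 0.

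In the order of their falls, several neighbours could not be separated by the spread of the arrays. Within arrays, the values of the groups overlapped for the differences of Tjp3 from Ocln, Cgn from Crb3, Crb3 from Epcam, Marveld2 from F11r and F11r from Marveld3. They did not overlap between Ocln and Cgn (a difference of −0.37 between their log2 fold changes), Epcam and Marveld2 (−0.17) or Marveld3 and Tjp1 (−0.34). The 9 genes thus fell into 4 steps: Tjp3 and Ocln, then Cgn, Crb3 and Epcam, then Marveld2, F11r and Marveld3, then Tjp1. These steps describe the signal of the whole tissue, were chosen by the values and were not tested.

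Set against Epcam in the same array, Tjp3 and Ocln fell further, by 0.57 (SD 0.05) and 0.47 (SD 0.05) on the log2 scale. Tjp1, Marveld3, F11r and Marveld2 were higher relative to Epcam without Klf5, by 0.66 (SD 0.12), 0.31 (SD 0.14), 0.27 (SD 0.10) and 0.17 (SD 0.04). For these 6 genes the groups did not overlap and an exact permutation test, two-sided, gave p = 0.1, the smallest possible (adjusted p = 0.133 over the 8 differences). Cgn (−0.09, SD 0.10) and Crb3 (−0.09, SD 0.07) overlapped between the groups (exact permutation p = 0.3, adjusted p = 0.3). With Cdh1, the gene of E-cadherin, as the reference, chosen with the data in view, Tjp3 stood lower by 0.24 without overlap, Ocln by 0.14 with overlap, and Crb3 and Epcam higher by 0.25 and 0.33 without overlap. Subtracting a reference gene shifts all log2 fold changes by the same amount. The order of the genes, from Tjp3 to Tjp1, is therefore the same with either reference by construction. A ratio within an array shows unequal change and not which gene changed.

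**Figure D4:**
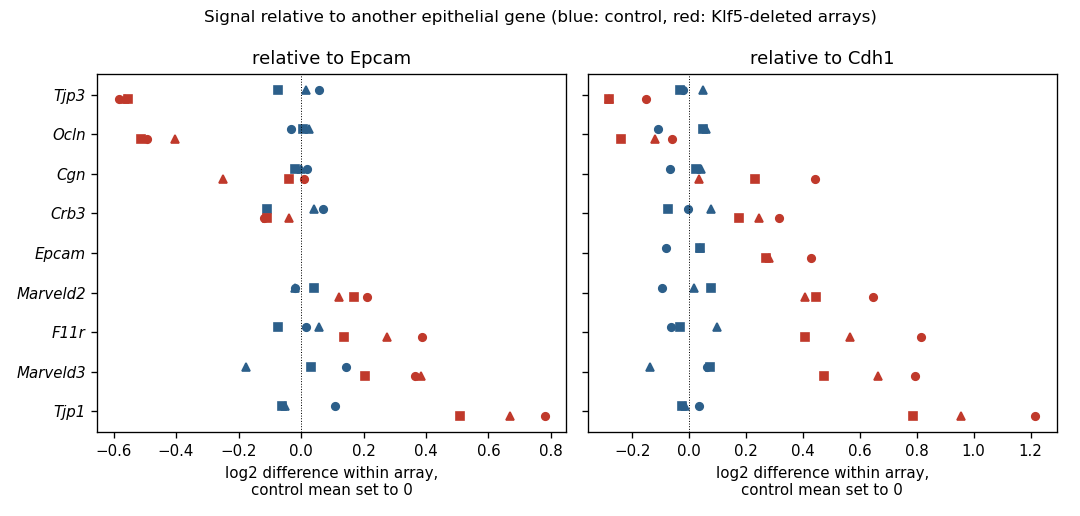
Log2 signal of each gene minus that of Epcam (left) or Cdh1 (right) in the same array, with the control mean set to 0; blue marks are the 3 control arrays and red marks the 3 Klf5-deleted arrays. Red marks of Tjp3 lie left of 0 in both panels and those of Tjp1 lie right of all blue marks.

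All 11 of the epithelial marker genes listed were called lower in the same arrays, with log2 fold changes from −0.36 for Krt18 to −4.20 for Lgals4 (median −1.27), and Cdh1 fell by 0.94 (SE 0.10, adjusted p = 0.00087 with limma). Their summed linear signal was 13188 to 15710 without Klf5, against 36665 to 37994 in the controls. Of 9 mesenchyme markers 1 rose and 0 fell (5 higher and 0 lower at an unadjusted p under 0.05), with summed signals of 39764 to 42256 and 36875 to 38404. The endothelium, whose cells also build tight junctions, had 0 of 8 markers called by limma (adjusted p from 0.0972 for Kdr to 0.987 for Emcn, and 1 higher at an unadjusted p under 0.05), with summed signals of 12683 to 15965 and 12966 to 13543. Smooth muscle (1 of 7 rose, with 2 lower and 1 higher at an unadjusted p under 0.05), enteric neurons and glia (1 of 6 rose, with 3 higher and 0 lower at that p), red cells (0 of 2, with 1 higher at that p), and leukocytes and platelets (1 of 8 fell, with 1 lower and 2 higher at that p) had few calls. In contrast 3 of 5 mesothelial markers rose and 2 fell, Krt19 and Msln. The share of all genes at an unadjusted p under 0.05 is not given here. The summed signals were 43032 to 45686 against 42337 to 45171 for smooth muscle, 8131 to 9375 against 7268 to 7707 for neurons and glia, and 6379 to 7877 against 6940 to 7900 for mesothelium. The mesothelial sum includes Krt19, which is also among the epithelial markers. The other 4 mesothelial genes summed to 5027 to 6772 against 3414 to 4526, without overlap. Sums of epithelium, of mesenchyme, and of neurons and glia also did not overlap between the groups. The summed signals were 2475 to 2881 against 2671 to 2866 for leukocytes and platelets, and 1347 to 2969 against 1132 to 1886 for red cells. Among all these markers, S100b alone lay in the lowest 25% of genes. In whole tissue fewer epithelial cells and less RNA per epithelial cell cannot be told apart, and the part of these markers in the falls of the junction genes was not tested.

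The partners of the 9 genes moved in both directions. The counts of each list below stand beside 8.58% of all genes called lower and 8.95% called higher. Of 13 genes listed for other transmembrane proteins, not all of them proteins of the tight junction, 6 fell and 1 rose, with a median of −0.03. Lsr, which encodes the angulin that recruits tricellulin to cell corners, read 9.89, 10.08 and 9.94 without Klf5 and 10.69, 10.77 and 10.79 in the controls. It fell by 0.78 (SE 0.06, adjusted p = 0.000251 with limma), against 0.44 for Marveld2. A further angulin gene, Ildr1, fell by 0.46 (SE 0.11, adjusted p = 0.0274), which no longer passed on leaving out Klf5-deleted replicate 3 (−0.47, adjusted p = 0.0734), control replicate 2 (−0.40, adjusted p = 0.0957) or control replicate 3 (−0.48, adjusted p = 0.0752). Tspan15, a tetraspanin partner of the protease ADAM10, and Jaml, a JAM-like adhesion gene, fell by 0.43 (SE 0.04) and 0.32 (SE 0.05), and Jaml lay in the lowest 25% of genes. Of 22 claudins 7 fell and 1 rose, with a median of 0.05, and of −0.13 over the 16 that lay above the lowest 25% of genes. Cldn7, the partner of Epcam, read 10.37, 10.71 and 10.74 against 11.60, 11.65 and 11.60 and fell by 1.01 (SE 0.10, adjusted p = 0.000571), and Cldn8 fell by 1.36 (SE 0.16) and Cldn3 fell by 1.07 (SE 0.08).

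Around Epcam, 5 of 5 measured genes fell, with a median of −0.85: Cldn7, the membrane serine proteases St14 (matriptase) and Prss8, and their inhibitors Spint1 and Spint2. St14 cleaves Epcam, and Spint1 and Spint2 hold it in check. Spint1 fell by 1.24 (SE 0.10), Spint2 by 0.85 (SE 0.06) and Prss8 by 0.82 (SE 0.08), with adjusted p of at most 0.000501 for these 3 genes with limma, while St14 fell by 0.79 (SE 0.09, adjusted p = 0.00135).

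Among the genes of 18 other plaque proteins 1 fell and 4 rose, with a median of −0.01. Magi3, a multi-PDZ scaffold, fell by 0.43 (SE 0.06, adjusted p = 0.00352 with limma). Mpdz, which encodes the multi-PDZ scaffold MUPP1, rose from 9.68, 9.76 and 9.80 in the controls to 10.20, 10.10 and 10.14, by 0.40 (SE 0.05, adjusted p = 0.00245). The angiomotin-like gene Amotl1 rose by 0.30 (SE 0.05, adjusted p = 0.00451). Of the 15 adherens junction genes 7 fell and 2 rose, with a median of −0.14. Camsap3, the gene of a protein of microtubule minus ends, fell by 0.70 (SE 0.05). Plekha7, whose product joins that protein to the junction, fell by 0.55 (SE 0.06), and the plakoglobin gene Jup by 0.49 (SE 0.05). Beside Cdh1, its relative Cdh3, the gene of P-cadherin, moved the other way. Cdh3 read 11.68, 11.46 and 11.34 without Klf5 and 10.95, 10.80 and 10.90 in the controls, a rise of 0.61 (SE 0.09, adjusted p = 0.00401 with limma). It was chosen for mention after the values were seen.

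The polarity complexes beside Crb3 were split. Of 21 genes 5 fell and 5 rose, with a median of 0.03. Llgl2, the epithelial lethal giant larvae gene that opposes the apical Par complex, read 8.93, 9.07 and 8.90 against 9.94, 9.99 and 9.91 and fell by 0.98 (SE 0.06, adjusted p = 7.2e-05 with limma). The atypical protein kinase C gene Prkcz fell by 0.53 (SE 0.06) and Pard6b, an adaptor of that kinase, by 0.36 (SE 0.06), while the fall of Prkcz was smaller as the mean of all its rows (−0.34, adjusted p = 0.00713). Prkci, the other atypical kinase gene, was at 0.07 (95% interval −0.05 to 0.18, adjusted p = 0.446). The direct partner of Crb3, PALS1 (Mpp5 in RefSeq), was at 0.20 (SE 0.06, adjusted p = 0.0506). It passed with quantile normalization (adjusted p = 0.0414), with the lowest 25% or 50% of genes left out (adjusted p = 0.0372 and 0.0216) and with a trend and robust variance (adjusted p = 0.0316). Patj fell by 0.26 (SE 0.06, adjusted p = 0.0256), and no longer passed on leaving out Klf5-deleted replicate 1 (−0.23, adjusted p = 0.0676), Klf5-deleted replicate 2 (−0.26, adjusted p = 0.0648), control replicate 2 (−0.26, adjusted p = 0.0859) or control replicate 3 (−0.22, adjusted p = 0.0833). Crb2, a relative of Crb3, rose by 0.58 (SE 0.15, adjusted p = 0.034) and Pard6g, a relative of Pard6b, by 0.27 (SE 0.05, adjusted p = 0.0127); both were chosen after the values were seen. Crb2 no longer passed on leaving out Klf5-deleted replicate 1 (0.44, adjusted p = 0.0579), Klf5-deleted replicate 2 (0.59, adjusted p = 0.0746), control replicate 2 (0.53, adjusted p = 0.112) or control replicate 3 (0.51, adjusted p = 0.116).

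**Figure D5:**
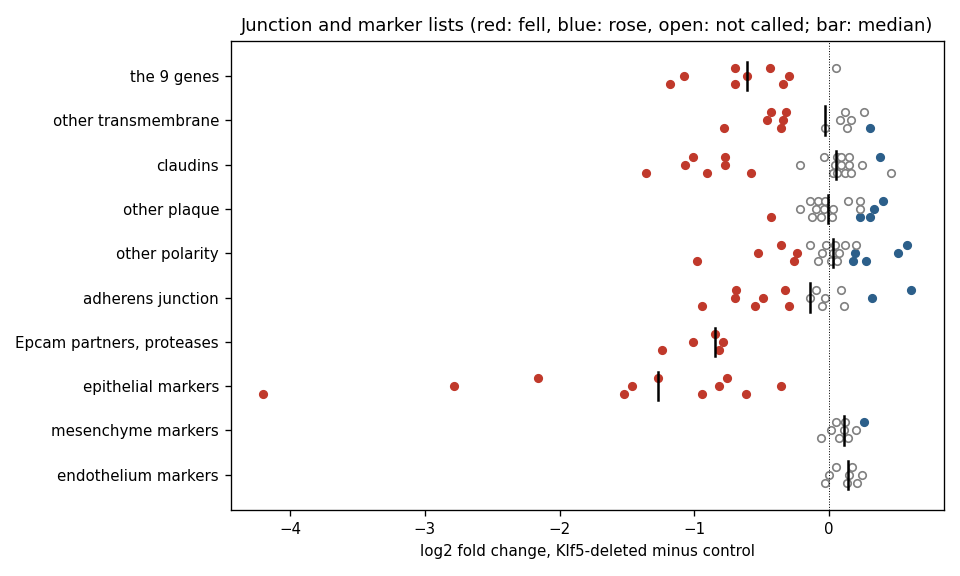
Log2 fold changes, Klf5-deleted minus control, of the 9 genes, of 6 lists of other junction genes and of 3 lists of cell type markers; red points fell, blue points rose, open points were not called, and black bars are medians. The median of the 9 genes is −0.61, those of the other plaque and polarity lists are −0.01 and 0.03, and that of the epithelial markers is −1.27.

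Of 16 transcription and splicing regulators known to act on junction genes 8 fell and 1 rose, with a median of −0.60. Elf3, Hnf4a and Ovol1 had log2 fold changes of −3.28 (SE 0.11), −1.97 (SE 0.08) and −1.75 (SE 0.13), with adjusted p of at most 0.000183 with limma. The grainyhead-like genes Grhl3 and Grhl2 fell by 1.26 (SE 0.10) and 0.68 (SE 0.08), and Zeb1, a repressor of epithelial genes, rose by 0.29 (SE 0.04, adjusted p = 0.00311); these 3 genes were chosen after the values were seen. Others of the same list were not called: Grhl1 was at 0.14 (SE 0.06, adjusted p = 0.132), and the repressors Snai1, Snai2, Zeb2 and Twist1 at 0.08, 0.06, 0.07 and −0.06 (adjusted p = 0.43 to 0.86). Ehf, at −0.58 (SE 0.23, unadjusted p = 0.0368, adjusted p = 0.133 with limma), and Ovol2, at −0.01 (SE 0.06, adjusted p = 0.939), were not called either.

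The genes whose profile over the 6 arrays was most like the mean profile of the 9 were found by the root mean square difference of log2 values, each gene centred on its own mean. Pfkl, the liver-type phosphofructokinase, was nearest at 0.0205. Plekha7 (0.0298), Tmem51 (0.031), the amino acid transporter subunit gene Slc3a1 (0.0311) and the adducin gene Add3 (0.0312) followed. Their log2 fold changes lay between −0.59 and −0.55. The mean centred profile itself was −0.38, −0.21 and −0.30 without Klf5, against 0.25, 0.28 and 0.35 in the controls.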

How the data were processed

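Total RNA was labelled and measured on the Affymetrix Mouse Gene 1.0 ST Array. Per the submitters' processing notes the authors used RMA and Affymetrix Expression Console 1.1, and the deposited values are RMA signals on the log2 scale. RMA makes array distributions alike and would remove a shift common to most genes. The sources used here name neither a genome build nor an array annotation. Arrays measure RNA, and protein was not measured. They have no read depth, and their number limits the precision.

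Of 35557 rows, 21789 had 1 gene symbol in the platform annotation, 1621 had several and 12147 are unnamed here. Symbols were updated by gene ID to RefSeq GRCm38.p6 (21698 matched). The brightest row per gene was kept, with no filter on level; 9 of 9 junction genes lay above the lowest 25% of genes and 8 above the lowest 50%. Groups and replicate numbers came from the sample titles. limma 3.58.1 in R 4.3.3 (lmFit, eBayes) was fitted to the 19938 genes, with Benjamini-Hochberg adjustment over all of them and a threshold of 0.05. In simulated data of 3 arrays against 3 with 200 of the 19938 genes changed, log2 changes of 0.25, 0.5, 1 and 2 were recovered at 22%, 50%, 94% and 100%, with 2.92% false calls. The shares in the data can differ, since far more genes changed there.

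The members, lists, markers and alternatives were chosen with earlier results of these data known. Named were the 9 genes, Klf5, the 3 genes of each junction list with the smallest p, direct partners and paralogs, and the 5 genes with the most similar profile (predicted-gene names left out); others are marked. Some listed genes are not reported here. Alternatives were each array left out, quantile normalization, median centring, a block for the replicate number, dim genes left out, array weights, robust variance with an intensity trend, the mean of all rows of a gene, every row on its own, and a looser threshold (0.1). A covariate for male share (mean linear signal of Eif2s3y, Kdm5d and Uty, scaled from the lowest array as 0% to the Klf5-deleted mean as 100%) and Cdh1 as a reference were added after seeing the data. Motifs were matched as exact letters on both strands.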

Additional observations from a re-analysis of the deposited data

How the results depend on the processing

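Over all alternatives 152 of 152 values of the 9 genes kept their direction. Many of these could not turn. The replicate block, dim genes left out, robust variance with a trend, the 2 other treatments of rows and the looser threshold leave their log2 fold changes as they were. Leaving out or reweighting arrays could not turn a sign either, since the groups did not overlap for any of the 9 genes. Over the alternatives other than the male share, 140 of 143 values stayed on the same side of the threshold, and the looser threshold cannot lose a fall. The 3 exceptions were falls of Marveld3, whose changes ranged from −0.35 to −0.26 with an array left out, and which missed the threshold with the replicate block (−0.30, adjusted p = 0.0726). With the block 7 of the 9 genes fell, and over all genes 1108 fell and 900 rose. The replicate numbers do not pair the samples: deviations of same-numbered arrays correlated at −0.145, −0.274 and −0.0315. With an array left out, 1132 to 1394 of all genes fell and 868 to 1363 rose, and of the 109 genes of the 7 lists of partners and regulators 7 to 11 rose against 14. With the male share as a covariate, 0 of the 9 genes, 79 of all genes and 2 of the 109 fell, and 4 of all genes and 0 of the 109 rose. Changes in that fit were −1.21 for Tjp3 (adjusted p = 0.0985), −1.31 for Ocln (0.0727), −0.91 for Cgn (0.185), −0.70 for Marveld2 (0.185), −0.16 for Marveld3 (0.695), −0.47 for F11r (0.28), −0.67 for Crb3 (0.282) and −0.79 for Epcam (0.175). Among partners, that fit also moved Pard6b to −0.19, Patj to −0.44, Crb2 to 0.97, Mpdz to 0.24 and Amotl1 to 0.20. The median SE was 0.147 against 0.0594. With Cdh1 in place of Epcam as reference, differences were 0.99 for Tjp1, −0.24 for Tjp3, −0.14 for Ocln, 0.24 for Cgn, 0.50 for Marveld2, 0.64 for Marveld3, 0.60 for F11r and 0.25 for Crb3. With the lowest 50% of genes left out Marveld3 was not among the genes tested. Of 759 values of the partners, regulators and similar genes that were refitted under alternatives, 0 turned direction. In several of these alternatives the log2 fold change of a gene with 1 row could not turn. Leaving out or reweighting an array also could not turn a gene whose groups did not overlap. For arrays, signal near the lower end limits what can be seen, which bears on Marveld3, Jaml and 6 of the claudins.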
